A study of Homo sapiens with 6 samples.

Results

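The 38 genes described here code for proteins of the epithelial basement membrane and for the receptors and linkers that hold cells to it. They were listed by function, with earlier treated-untreated results of these libraries in view, and were found by symbol among the 58051 genes of the deposited count table, where all 38 had a row. Because the treated-untreated contrast was known when the list was made, the counts and changes below are descriptions of these genes and not independent support for a direction. OE33 is an established human oesophageal adenocarcinoma cell line of epithelial type. One group of 3 libraries came from untreated OE33 cells, and the other 3 came from OE33 cells exposed for 24 h to APX2009 at 15 µM. This compound blocks the redox function of APE1, through which APE1 keeps several transcription factors, AP-1 among them, reduced and able to bind DNA. The control received no named vehicle, and the series' design text describes the replicates as independent biological ones.

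A basement membrane is a thin sheet of extracellular matrix under epithelia. Laminin trimers of an α, a β and a γ chain polymerise at the cell surface, type IV collagen forms a second network, and nidogens, perlecan (HSPG2) and agrin (AGRN) tie the networks together. Integrins, each an α and a β chain, and dystroglycan bind laminin from the cell side. In hemidesmosomes the integrin α6β4, collagen XVII and CD151 connect laminin-332 to plectin and dystonin and so to keratin filaments, while integrins with the β1 chain couple through talin, vinculin and integrin-linked kinase to actin.

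Levels are given as CPM, the share of a library's gene counts after TMM scaling of its total. A gene is said to have risen or fallen when its edgeR quasi-likelihood p, adjusted by Benjamini-Hochberg over all 14773 tested genes, was under 0.05. APX2009 replicate 1 stood apart from the other libraries. It held 25015 detected genes, against 21845 to 22446 in the other 5. The lowest correlation of a library with another of its group was 0.985 to 0.9865 among the treated libraries, where replicates 1 and 3 were farthest apart, and 0.9927 to 0.9936 among the untreated ones. ERCC spike-in transcripts took 0.315% of its counts, against 0.734% and 0.752% in the other treated libraries and 0.480% to 0.564% in untreated ones. Epithelial markers were high in all libraries, with a summed level of 27290 to 28011 CPM over 6 genes in untreated and 15147 to 18805 CPM in the treated ones; KRT8, KRT18, KRT19, KRT7 and CDH1 fell and EPCAM did not pass (log2 change 0.00 ± 0.06, SE). Of the 8 fibroblast markers, 6 were at 0 in each untreated library, while none was at 0 in APX2009 replicate 1. Without COL1A1, whose level was 8.35 to 14.3 CPM everywhere, the other 7 summed to 5.21 CPM in that library and to 0.0444 to 0.0958 CPM in the other 5. The 6 endothelial markers likewise summed to 2.25 CPM there and to at most 0.442 CPM elsewhere. The 6 leukocyte markers, mostly CD14 and CD68, summed to 6.08 to 6.79 CPM in untreated and 6.75 to 7.90 CPM in treated libraries. Of these, CD68 rose (log2 change 1.19), CD14 and LYZ had negative changes that did not pass, and the others were not tested.

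After APX2009 most of the abundant basement membrane and adhesion transcripts were lower. HSPG2, FRAS1, COL17A1, AGRN and BCAM had the most negative log2 changes, each at least 2-fold below untreated cells. Tested against a 1.5-fold change, 8 members were lower and 1 higher, beside 255 and 351 of all 14773 genes tested. Of the 38 members, 34 passed the filter on low counts, COL4A1 only through its treated libraries. Of these 34, 21 fell, 2 rose (COL4A1 and DST) and 11 did not pass. Over all tested genes 34.7% passed, 17.4% lower and 17.2% higher, and the median log2 change was -0.41 for the tested members and 0.02 for all tested genes. In 23 of the 34 all treated values lay below all untreated values and in 2 all lay above, where 25.0% and 24.5% of all tested genes did so. Without APX2009 replicate 1, 22 members were lower and 2 higher, while over all 14987 genes then tested 2870 were lower and 2839 higher, against 2576 and 2543 with it. When libraries were scaled by their ERCC total, HSPG2 alone was called lower and COL4A1 alone higher, while the median log2 change of the members was -0.35. In bulk RNA, fewer cells that express a gene and less of its RNA per cell cannot be told apart.

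Summed over all 38 genes, levels were 14243, 15932 and 15539 CPM in untreated replicates 1, 2 and 3 and 8448, 10331 and 10066 CPM in the treated ones, so the treated mean was 63.1% of the untreated mean. The treated sum was 42.3% of the untreated for the matrix proteoglycans and the Fraser complex, 57.2% for the hemidesmosome partners, 59.6% for the network collagens and 61.8% for the laminins with the nidogens. It was 70.5% for the integrins, 80.1% for the other matrix receptors and 87.4% for the cytoplasmic linkers. Such sums follow the most abundant genes of a role. By untreated mean, COL18A1 made up 105 of the 115 CPM of the network collagens, whose tested genes had a median log2 change of 0.32. PLEC made up 2674 of 3240 CPM of the hemidesmosome partners, and AGRN 1545 of 1971 CPM of the matrix proteoglycans and Fraser complex. The secreted matrix genes had a median log2 change of -0.58 over 14 tested genes, and the genes on the cell side -0.29 over 20. These roles were set side by side without a test of the difference.

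**Figure D1:**
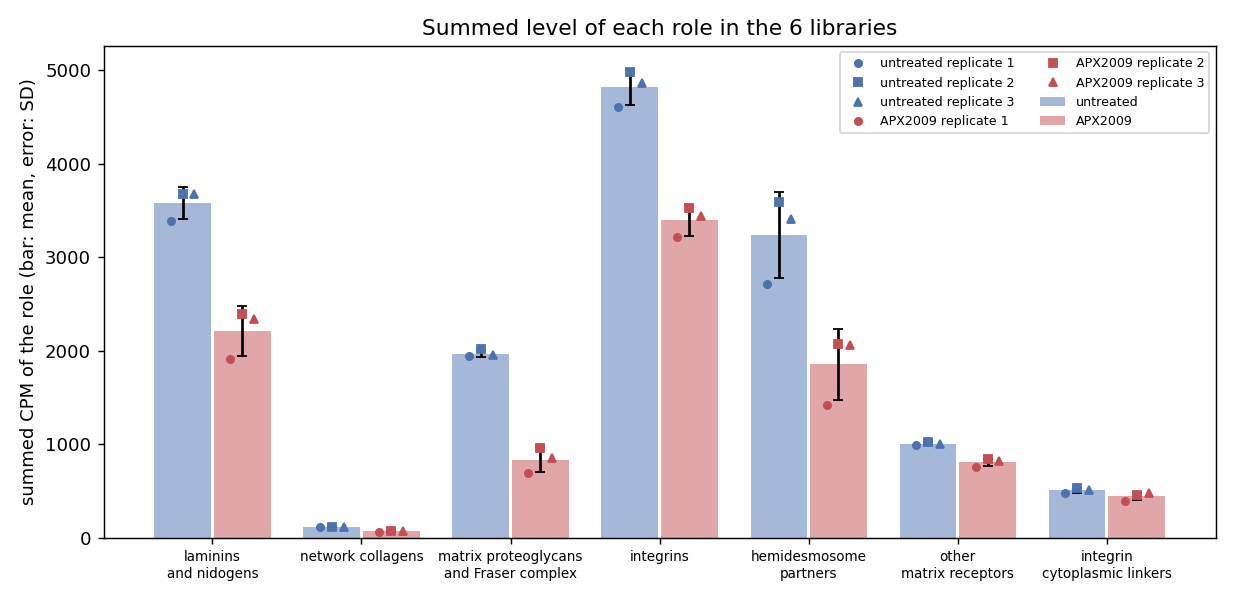
Summed CPM of each role (y axis) in untreated and APX2009-treated OE33 cells; bars are means, error bars SD over 3 libraries, and points single libraries. The mean sum of the integrins was 4817 CPM without and 3396 CPM with APX2009, and that of the matrix proteoglycans and Fraser complex 1971 and 834 CPM.

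**Figure D2:**
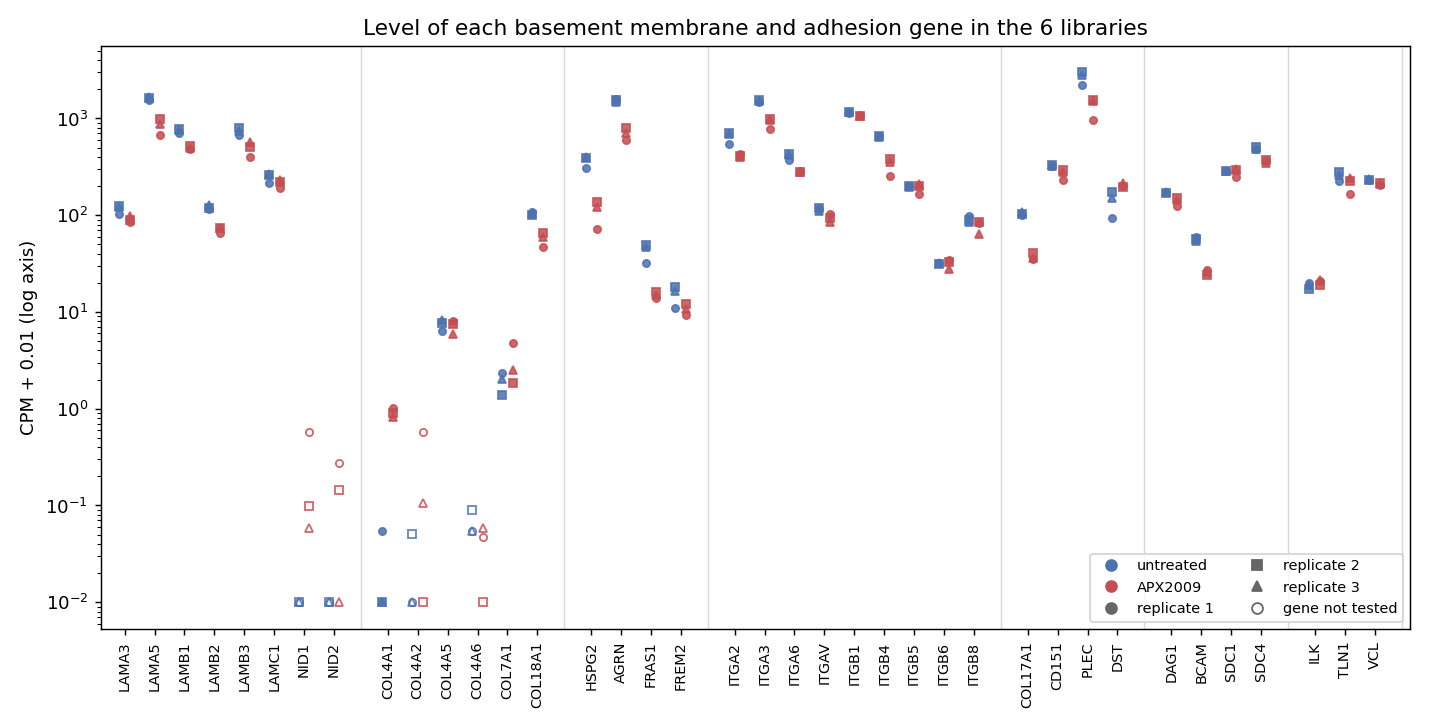
Level of each of the 38 genes (CPM plus 0.01, log axis) in every library, ordered by role, with untreated libraries in blue and treated ones in red; open symbols mark the 4 genes that were not tested. Most abundant genes sit lower in the treated libraries, while NID1, NID2, COL4A2 and COL4A6 lie near 0 in all 6.

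Among the matrix linkers, perlecan, agrin and the Fraser proteins FRAS1 and FREM2, all 4 fell. Perlecan is a large heparan sulphate proteoglycan that binds laminin, nidogen and collagen IV. HSPG2 (ENSG00000142798, chromosome 1, 21822245 to 21937297 on GRCh38) stood at 310, 395 and 400.2 CPM in untreated replicates 1, 2 and 3 and at 72.7, 137 and 122 CPM in the treated ones. All treated values lay below all untreated ones, with APX2009 replicate 1 lowest, and the log2 change was -1.74 ± 0.20 (SE; edgeR adjusted p = 1.24e-04). Without that replicate it was -1.51. AGRN, agrin, a laminin-binding proteoglycan best known from the neuromuscular junction, was at 1591, 1554 and 1489.6 CPM in untreated and 595, 794 and 703 CPM in treated cells (log2 change -1.15 ± 0.10). Within a library, the level of HSPG2 per kilobase of exon was 0.116, 0.151 and 0.160 of that of AGRN in untreated cells and 0.0726, 0.102 and 0.103 in treated cells. This ratio, which does not depend on how libraries are scaled, was thus lower in every treated library.

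FRAS1 and FREM2 are large proteins that assemble in a complex under epithelia, in the embryo between epidermis and dermis. FRAS1 went from 32.1, 48.9 and 46.8 CPM to 14.1, 15.96 and 15.1 CPM, with no overlap between groups and a log2 change of -1.50 ± 0.15. FREM2 was at 11.04, 17.99 and 16.5 CPM in untreated and 9.36, 12.0 and 10.8 CPM in treated cells. Its groups overlapped, since untreated replicate 1 lay below APX2009 replicate 2, and it had the largest adjusted p of the members called (log2 change -0.50 ± 0.17, edgeR adjusted p = 0.0461). It was lost without untreated replicate 2 or 3 and without any one treated library (edgeR adjusted p up to 0.196). The ratio of FREM2 to FRAS1 per kilobase was 0.403, 0.430 and 0.413 in untreated and 0.777, 0.882 and 0.835 in treated libraries, higher in every treated library, with a log2 difference of 1.00.

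Promoter windows from RefSeq (GRCh38.p14), from 250 bases before to 50 bases after each annotated start, matched 33 of the 38 members with 47 windows; AGRN, ITGA3, ITGB4, CD151 and PLEC had none. They were searched on both strands for the AP-1 motif TGANTCA, the GC box GGGCGG bound by SP and KLF factors and TATAAA. The TEAD motif GGAATG and the antioxidant response core TGACNNNGC were searched too, and overlapping matches were each counted. HSPG2 (chr1:21937261-21937560, minus strand) and FRAS1 (chr4:78057073-78057372, plus strand), the 2 largest falls, are shown 5′ to 3′ because their windows differ: capitals mark the GC boxes, of which HSPG2 holds 10 and FRAS1 holds 1.
HSPG2: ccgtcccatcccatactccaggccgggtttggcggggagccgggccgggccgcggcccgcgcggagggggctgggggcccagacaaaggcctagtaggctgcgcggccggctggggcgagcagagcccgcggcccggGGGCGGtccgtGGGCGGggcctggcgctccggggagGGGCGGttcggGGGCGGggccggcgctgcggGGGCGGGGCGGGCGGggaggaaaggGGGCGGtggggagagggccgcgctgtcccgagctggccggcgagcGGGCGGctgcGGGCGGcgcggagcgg
FRAS1: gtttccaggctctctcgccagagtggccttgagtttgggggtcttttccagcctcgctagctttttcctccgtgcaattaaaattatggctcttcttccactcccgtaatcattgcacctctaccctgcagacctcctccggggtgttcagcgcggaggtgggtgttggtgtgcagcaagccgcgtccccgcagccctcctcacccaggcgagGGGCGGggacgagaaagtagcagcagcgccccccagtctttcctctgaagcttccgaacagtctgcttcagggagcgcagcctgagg
Neither window holds TGANTCA. The HSPG2 window is 83.3% G and C and the FRAS1 window 60.0%. A match describes letters in these windows and shows no binding.

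Of the laminin chains 5 of 6 fell: LAMA3, LAMA5, LAMB1, LAMB2 and LAMB3, while LAMC1 did not pass. LAMA5, the α5 chain of laminin-511 and laminin-521 (ENSG00000130702, chromosome 20, 62307955 to 62367312), stood at 1561, 1617 and 1648 CPM in untreated and 676, 977 and 873 CPM in treated cells. No treated value reached an untreated one, and the log2 change was -0.93 ± 0.12. LAMB2, the β2 chain, went from 117, 117 and 127 CPM to 66.0, 74.5 and 73.3 CPM (log2 change -0.76 ± 0.07). LAMB1, the β1 chain, went from 715, 772 and 762 CPM to 483, 520.5 and 499 CPM, a log2 change of -0.58 ± 0.07. The groups did not overlap for either β chain. The within-library ratio of LAMB1 to LAMB2 per kilobase was 5.05 to 5.54 in untreated and 5.75 to 6.17 in treated libraries, so it shifted little, towards LAMB1. LAMC1, the γ1 chain shared by these trimers, was at 217, 259 and 269 CPM in untreated and 193, 221 and 230 CPM in treated cells, with overlapping groups (log2 change -0.21 ± 0.10, edgeR adjusted p = 0.118). Without untreated replicate 1 LAMC1 did pass, at -0.30 (edgeR adjusted p = 0.0333).

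Laminin-332, the ligand of hemidesmosomes, holds the chains α3 and β3. LAMB3 went from 676, 791 and 746 CPM to 404, 510 and 567 CPM, with no overlap (log2 change -0.58 ± 0.12). LAMA3 went from 102, 125 and 123 CPM to 84.8, 89.2 and 99.0 CPM, a smaller fall of -0.36 ± 0.09 on the log2 scale. It did not pass without untreated replicate 2 or 3 (edgeR adjusted p up to 0.0576). Per kilobase of exon, LAMB3 was at 157 ± 12.3 CPM in untreated cells (SD, n = 3), LAMA5 at 113 ± 3.10, LAMB1 at 92.1 ± 3.78 and LAMC1 at 29.6 ± 3.32. LAMB2 followed at 17.5 ± 0.868 and LAMA3 at 7.95 ± 0.859. In treated cells LAMB3 led at 105 ± 17.6, and LAMB1 and LAMA5, at 61.5 ± 2.32 and 58.9 ± 10.7, did not differ beyond their spread. Within libraries the ratio of LAMA5 to LAMA3 was 13.3 to 15.7 in untreated and 8.18 to 11.2 in treated cells. LAMB3 per LAMA3 was 19.0 to 20.7 and 14.9 to 17.95. Both ratios were lower in all treated libraries.

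The windows of LAMA5 (chr20:62367263-62367562, minus strand) and of LAMA3 (chr18:23872770-23873069, plus strand) are shown because these α chains fell to different extents and LAMA3 is among the few members with an AP-1 motif. The LAMA3 window belongs to a start inside the gene's annotated span (chromosome 18, 23689443 to 23956222), and counts per gene do not separate its starts. Capitals mark GC boxes in either orientation and, in LAMA3, 2 copies of TGANTCA.
LAMA5: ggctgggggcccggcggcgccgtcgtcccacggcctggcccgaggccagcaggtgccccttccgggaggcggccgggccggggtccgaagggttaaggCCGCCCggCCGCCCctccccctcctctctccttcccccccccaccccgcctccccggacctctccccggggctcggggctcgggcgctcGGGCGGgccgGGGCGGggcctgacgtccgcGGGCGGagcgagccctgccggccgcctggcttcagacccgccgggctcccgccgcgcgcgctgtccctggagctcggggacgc
LAMA3: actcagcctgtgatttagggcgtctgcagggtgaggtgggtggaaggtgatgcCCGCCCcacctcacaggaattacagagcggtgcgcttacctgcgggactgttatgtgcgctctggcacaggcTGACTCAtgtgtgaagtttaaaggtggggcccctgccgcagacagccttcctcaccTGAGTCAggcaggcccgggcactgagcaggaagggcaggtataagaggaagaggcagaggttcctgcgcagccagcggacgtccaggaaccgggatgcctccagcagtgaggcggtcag
LAMA5 holds 5 GC boxes and LAMA3 holds 1. TGANTCA was found in 3 of 33 matched members, LAMA3, LAMB3 and DST; 2 of these fell and DST rose. By window, 6.38% of the 47 member windows and 7.71% of all 35116 windows held it. The GC box was in 78.7% of member windows and 44.95% of all windows, in 13 of 16 matched members that fell and in 9 of 11 that did not pass. TATAAA was in 10.6% of member windows and 11.5% of all windows, GGAATG in 6.38% and 14.0%, and TGACNNNGC in 10.6% and 13.3%. GGAATG and TGACNNNGC were each in 0 of the 16 that fell, and in 2 and 3 of the 11 that did not pass.

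The nidogens, which bridge laminin and collagen IV, were at or near 0. NID1 had 0 counts in every untreated library and 15, 2 and 1 counts in treated replicates 1, 2 and 3. NID2 had 0 counts in untreated and 7, 3 and 0 counts in treated libraries. Neither was tested. Most of these counts were in APX2009 replicate 1, the library with fibroblast and endothelial markers, whose part in them was not tested. NID2 shares 30.0% of its exon bases with RTRAF on the other strand.

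The network collagens did not share a direction. COL18A1, the collagen XVIII chain whose end fragment is endostatin (ENSG00000182871, chromosome 21, 45405137 to 45513720), fell from 108, 102 and 106 CPM to 46.6, 65.4 and 59.2 CPM. The groups did not overlap and the log2 change was -0.89 ± 0.11 (edgeR adjusted p = 1.80e-04). COL4A5, the α5 chain of collagen IV, was at 6.39, 7.67 and 8.32 CPM in untreated and 8.01, 7.51 and 5.89 CPM in treated cells, fully overlapping (log2 change -0.06 ± 0.15). COL7A1, which forms the anchoring fibrils under the basement membrane, was at 2.32, 1.37 and 2.00 CPM and 4.79, 1.82 and 2.49 CPM, also overlapping (0.70 ± 0.34, edgeR adjusted p = 0.144). Its highest value was in APX2009 replicate 1, without which the log2 change was 0.19; without APX2009 replicate 2 it was 0.97 and passed (edgeR adjusted p = 0.0477).

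COL4A1, the α1 chain of the main collagen IV trimer, was nearly absent from untreated cells and low in all treated ones. It had 1, 0 and 0 counts in untreated replicates 1, 2 and 3 and 27, 20 and 17 counts in the treated ones, or 1.011, 0.889 and 0.814 CPM. Every treated library lay above every untreated one. The ratio of summed counts per effective library size was 63.7, with an exact 95% interval of 11.03 to 2554 that covers counting error only (edgeR adjusted p = 2.34e-04). The 2 treated libraries other than replicate 1 held 37 of the 64 counts, and the edgeR adjusted p without that replicate was 1.90e-04. COL4A1 passed the filter on low counts only through its treated libraries. Its p-values and interval therefore describe the counts and are not support for a rise. COL4A2, whose α2 chain joins α1 chains in the trimer, had 0, 1 and 0 counts in untreated and 15, 0 and 2 counts in treated libraries, so that 15 of 17 treated counts lay in replicate 1. COL4A6 had 1, 2 and 1 counts in untreated and 1, 0 and 1 in treated libraries. Neither was tested.

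COL4A1 and COL4A2 start 127 bases apart on opposite strands. The COL4A1 window (chr13:110307108-110307407, minus strand) is shown because it spans both starts, with COL4A1 starting at base 251 and COL4A2 at base 124 of the printed strand; capitals mark GC boxes in either orientation.
COL4A1: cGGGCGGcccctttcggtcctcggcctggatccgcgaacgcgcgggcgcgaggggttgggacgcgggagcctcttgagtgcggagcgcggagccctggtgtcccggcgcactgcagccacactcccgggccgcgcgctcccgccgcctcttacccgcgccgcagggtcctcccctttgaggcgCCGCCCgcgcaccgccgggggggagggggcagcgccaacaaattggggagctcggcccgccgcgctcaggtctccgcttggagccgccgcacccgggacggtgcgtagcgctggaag

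**Figure D3:**
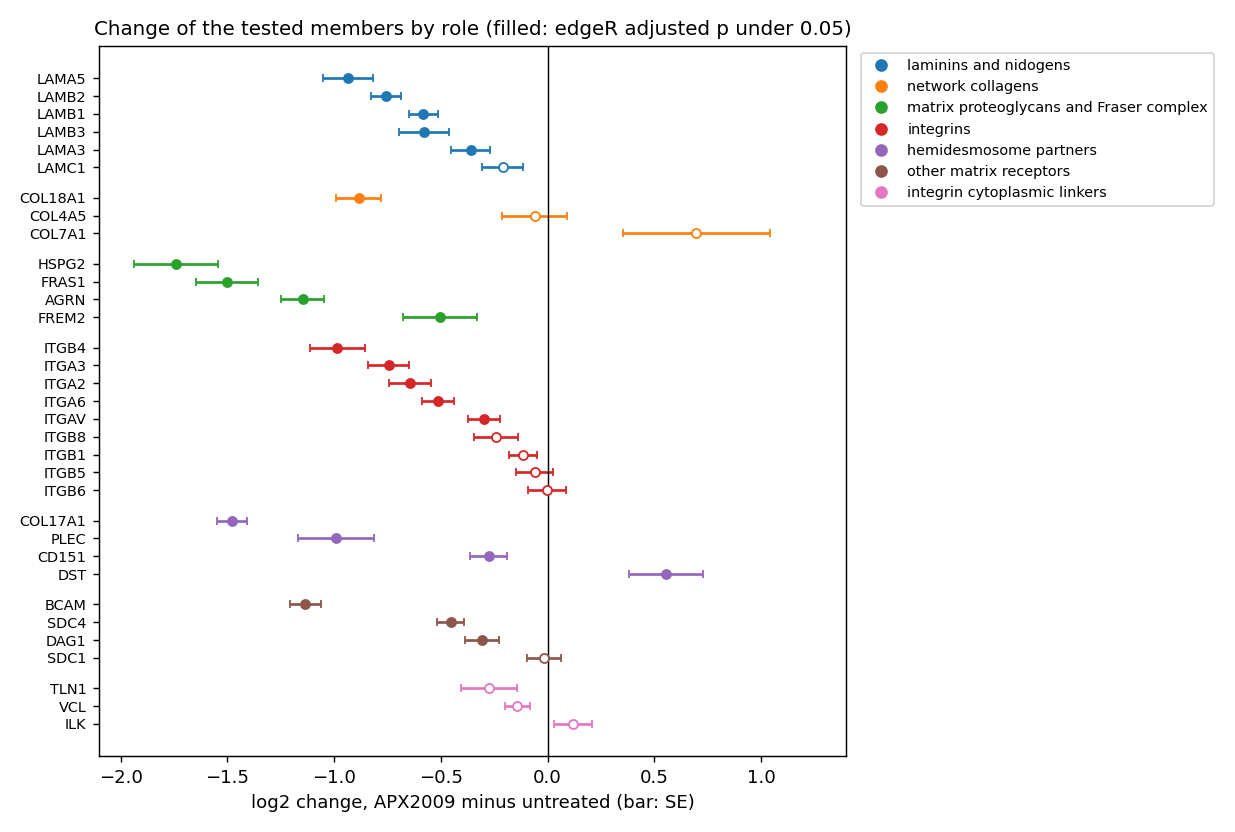
Log2 change of 33 of the 34 tested genes (x axis, APX2009 minus untreated, error bars SE from the edgeR fit), grouped by role; filled points passed at an adjusted p under 0.05. HSPG2 lies farthest to the left at -1.74; COL4A1, at 5.54 on the fitted scale from almost no untreated counts, is left out of the plot.

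All 4 integrin α chains listed fell, while of the 5 β chains ITGB4 fell and ITGB1, ITGB5, ITGB6 and ITGB8 did not pass. Over all tested genes 17.4% were lower and 17.2% higher. The split follows the chains listed. Among tested integrin genes outside the list, ITGA5 (log2 change -0.33) and ITGB2 (-0.82) fell. ITGA1 (-0.25), ITGA7 (-0.25) and ITGAE (-0.13) did not pass. ITGA3, the laminin-binding partner of β1 in α3β1, was at 1465, 1559 and 1527 CPM in untreated and 771, 994 and 954 CPM in treated cells, a log2 change of -0.74 ± 0.10. ITGA2, of the collagen receptor α2β1, went from 544, 714 and 688 CPM to 429.7, 413 and 403 CPM (-0.64 ± 0.10). ITGA6, the α chain of both α6β1 and α6β4, went from 368, 430.1 and 417 CPM to 289.8, 282 and 278 CPM (-0.52 ± 0.07). In all 3 genes the groups were apart. ITGAV, an α chain of RGD-binding integrins, went from 115, 119 and 112 CPM to 103, 93.1 and 85.7 CPM (-0.30 ± 0.08). This small fall did not pass without untreated replicate 2 (edgeR adjusted p = 0.0655).

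ITGB4, the β chain found in hemidesmosomes (ENSG00000132470, chromosome 17, 75721328 to 75757818), was tightly grouped at 657, 654 and 647 CPM in untreated cells. In treated cells it was at 253, 378 and 358 CPM, with replicate 1 lowest, and the log2 change was -0.99 ± 0.13 (edgeR adjusted p = 2.85e-04). ITGB1, the common partner of most α chains, was at 1126, 1179.6 and 1166 CPM in untreated and 1086, 1053 and 1066 CPM in treated cells. Its treated values all lay below the untreated ones, but the difference was small and did not pass (-0.11 ± 0.06, edgeR adjusted p = 0.189). The partners of αV, ITGB5, ITGB6 and ITGB8, had log2 changes of -0.06 ± 0.09, 0.00 ± 0.09 and -0.24 ± 0.10. Without APX2009 replicate 1 ITGB1, at -0.13, and ITGB8, at -0.29, did pass (edgeR adjusted p = 0.0406 and 0.0374). For ITGB6 the sign turned under 7 alternatives, for ITGB5 under 1.

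Within libraries, ITGA3 per ITGB1 was 0.798 to 0.811 in untreated and 0.435 to 0.579 in treated cells. ITGB4 per ITGA6 was 1.47 to 1.73 and 0.843 to 1.29, so ITGB4, the more abundant of the pair per kilobase in every untreated library, was the less abundant in APX2009 replicate 1. ITGB6 per ITGAV lay the other way, at 0.458 to 0.501 in untreated and 0.565 to 0.619 in treated libraries. The 2 groups did not overlap in any of these ratios, while ITGB5 and ITGB8 per ITGAV overlapped. The log2 difference of ITGB4 per ITGA6 was -0.50, and -0.30 without APX2009 replicate 1. That of ITGA3 per ITGB1 was -0.64 and -0.51. ITGB4 and ITGA3 hold 63.7% and 61.3% G and C, against 42.9% in ITGA6 and 40.0% in ITGB1, and the part of this in the ratios was not tested. In untreated cells the order per kilobase of exon was ITGB1 (193 ± 4.64 CPM), ITGA3 (155 ± 4.91), ITGB4 (96.5 ± 0.717), ITGA2 (82.0 ± 11.6), ITGA6 (62.0 ± 5.03), ITGB5 (30.8 ± 0.491), ITGAV (14.1 ± 0.474), ITGB6 (6.78 ± 0.116) and ITGB8 (6.02 ± 0.454; SD, n = 3), and no neighbours in this order overlapped. In treated cells ITGB1 stayed first at 178 ± 2.80, ITGA3 was second at 92.4 ± 12.1, and ITGA2, ITGB4 and ITGA6 followed at 52.5 ± 1.72, 48.8 ± 9.96 and 43.4 ± 0.937. ITGB4 overlapped both of these neighbours.

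**Figure D4:**
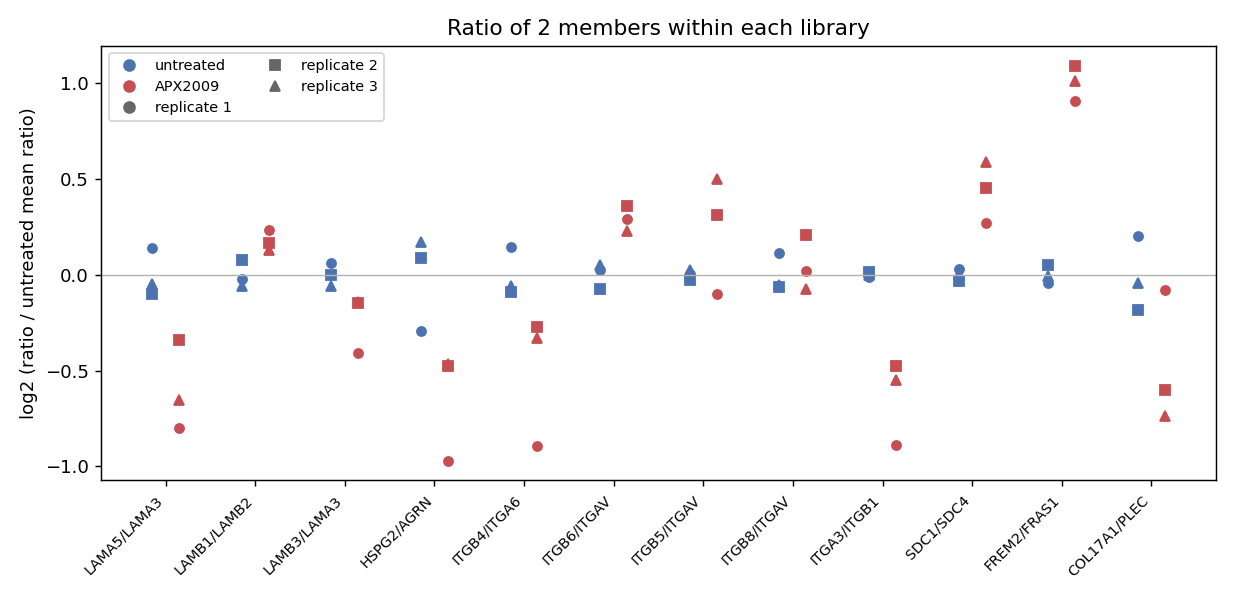
Log2 of the ratio of 2 members within each library, relative to the untreated mean ratio (y axis), for the 12 of 15 listed pairs with both genes tested; blue untreated, red treated, symbols by replicate. The ratio FREM2/FRAS1 is higher in all treated libraries by a mean of 1.00, and ITGA3/ITGB1 and ITGB4/ITGA6 are lower in all treated libraries.

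Counting α6 and β4, 5 of the 6 hemidesmosome genes fell and DST rose. COL17A1, the transmembrane collagen of hemidesmosomes (ENSG00000065618, chromosome 10, 104031286 to 104085957), went from 99.8, 104 and 108 CPM to 35.6, 40.2 and 36.3 CPM. The spread was small in both groups, which lay far apart, and the fall of -1.48 ± 0.07 on the log2 scale had the smallest adjusted p of the members (edgeR, 4.35e-07). PLEC, plectin, which links β4 to keratin filaments, was the most counted member at 2199.9, 2991 and 2829.9 CPM in untreated and 953, 1549 and 1533 CPM in treated cells (-0.99 ± 0.18). Replicate 1 was the lowest of its group in both conditions. CD151, a tetraspanin bound to α3 and α6 integrins, went from 323, 327 and 322 CPM to 232, 291 and 279 CPM (-0.28 ± 0.09). Its call was lost without any one untreated library (edgeR adjusted p up to 0.0941) and with an offset for exon length and GC content.

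DST, dystonin, a very large linker whose epithelial form binds keratin and whose other forms bind actin and microtubules, stood at 94.6, 172 and 149 CPM in untreated and 201, 194 and 216 CPM in treated cells. All treated values were above all untreated ones, with untreated replicate 1 far below the other 2, and the log2 change was 0.56 ± 0.17 (edgeR adjusted p = 0.0297). Without untreated replicate 1 it was 0.34 (edgeR adjusted p = 0.0226). It did not pass without untreated replicate 3, APX2009 replicate 2 or APX2009 replicate 3 (edgeR adjusted p up to 0.0839), nor with DESeq2 (adjusted p = 0.0693). Counts per gene do not separate its forms. The COL17A1 window (chr10:104085831-104086130, minus strand) is shown because this gene fell about as far as FRAS1 and holds no GC box and no TGANTCA; capitals mark TATAAA.
COL17A1: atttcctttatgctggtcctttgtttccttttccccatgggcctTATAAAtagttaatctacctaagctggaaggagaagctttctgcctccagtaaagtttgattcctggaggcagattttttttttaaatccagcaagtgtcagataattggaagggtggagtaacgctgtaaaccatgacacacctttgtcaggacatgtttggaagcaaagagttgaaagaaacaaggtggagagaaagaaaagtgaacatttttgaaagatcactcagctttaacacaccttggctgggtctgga
The window is 40.7% G and C, against 83.3% in the HSPG2 window.

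Of the other matrix receptors 3 of 4 fell. BCAM, the Lutheran glycoprotein, a receptor for the laminin α5 chain, went from 59.0, 57.4 and 53.6 CPM to 27.1, 24.2 and 26.1 CPM. It was 2.20-fold lower with no overlap (log2 change -1.13 ± 0.07, edgeR adjusted p = 3.08e-06), beside the fall of LAMA5 itself. SDC4, syndecan-4, a heparan sulphate co-receptor in focal adhesions, went from 480.3, 507 and 488 CPM to 359, 371 and 347 CPM (-0.45 ± 0.06). DAG1, which codes for dystroglycan, went from 172, 171 and 174 CPM to 124, 150.2 and 144 CPM (-0.31 ± 0.08). SDC1, syndecan-1, was at 284, 288 and 284 CPM and 251, 294 and 302 CPM, with overlapping groups (-0.02 ± 0.08, edgeR adjusted p = 0.894). The ratio of SDC1 to SDC4 per kilobase was 0.413 to 0.429 in untreated libraries and 0.508 to 0.633, higher throughout, in treated ones.

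The linkers from β1 integrins to actin did not pass. TLN1, talin, was at 228, 281 and 261 CPM in untreated and 167, 227 and 244 CPM in treated cells (-0.27 ± 0.13). VCL, vinculin, was at 231, 229.9 and 235 CPM and 205, 216 and 210.0 CPM (-0.14 ± 0.06, edgeR adjusted p = 0.0942). ILK, integrin-linked kinase, was at 20.03, 17.5 and 18.8 CPM and 20.7, 18.9 and 21.6 CPM (0.12 ± 0.09). The treated values lay below the untreated ones for VCL and overlapped them for TLN1 and ILK; at an unadjusted p under 0.05, 1 of the 3 passed, as did 6623 of the 14773 genes tested. ILK shares 68.1% of its exon bases with TAF10 on the other strand, which had 84.7 CPM in untreated cells, so without a known strand setting its counts are uncertain. Exon overlap on the other strand was also 16.4% for COL18A1 with SLC19A1 (42.6 CPM in untreated cells), 11.7% for HSPG2 with LDLRAD2 (1.41 CPM) and 11.1% for VCL with AP3M1 (85.5 CPM).

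Other genes of the same processes were taken from lists made by function. Over all tested genes 17.4% were lower and 17.2% higher. Of 25 other basement membrane components 11 were tested, 4 fell and 3 rose, with a median log2 change of -0.26. NPNT, a ligand of α8β1, was 1.62-fold lower, while THBS1, thrombospondin-1, was 2.10-fold higher and NTN4, netrin-4, which binds laminin γ1, 1.23-fold higher. Of 45 other integrin and adhesion plaque genes 34 were tested, 19 fell and 4 rose (median -0.27). ITGB2 and the kindlin gene FERMT1 were 1.76-fold and 1.62-fold lower, and KANK2 and the tetraspanin gene TSPAN4 1.83-fold and 1.57-fold lower. Of 32 enzymes and carriers that fold, modify or crosslink matrix proteins 31 were tested, 9 fell and 7 rose, with a median of -0.06. PPIB, a prolyl isomerase of the endoplasmic reticulum, was 2.10-fold higher, while the crosslinking enzyme gene TGM2 was 2.78-fold lower, and LARGE2, which extends the laminin-binding sugar of dystroglycan, and the collagen chaperone gene FKBP10 were 1.44-fold and 1.38-fold lower.

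Members were long and abundant genes. Their median exon length was 8309 bases over the 34 tested, against 4561 over the 14721 tested genes with annotation, and 20 of the 34 lay in the quintile of genes with the longest exons. In that quintile the median log2 change of all genes was -0.02, with 20.3% lower and 17.5% higher; of the 20 members there, 12 fell and 2 rose, with a median of -0.43. Across the members Spearman's rho of the log2 change was -0.16 with exon length and 0.15 with gene span (n = 34 genes measured in the same 6 libraries, a description). GC content went further with the change, at rho = -0.43, against -0.19 over all tested genes. In the quintile of genes richest in G and C, 27.2% of all genes were lower and 9.78% higher (median -0.11), and of the 13 members there 11 fell, with a median of -0.89. In 16 of the 21 members that fell, APX2009 replicate 1 was the lowest treated library. The part of GC content and of that library in these changes was not tested. With an offset for exon length and GC content 24 members were lower and 2 higher, while over all genes 3131 were lower and 2444 higher, against 2576 and 2543 without it. The median of the members was then -0.44, and HSPG2, AGRN and ITGB4 stayed lower. Some falls became smaller: HSPG2 was at -1.50 with the offset and -1.74 without it, AGRN at -0.89 and -1.15, and LAMA5 at -0.675 and -0.93. Others became larger, with LAMB1 at -0.60 and -0.58 and LAMC1 at -0.24 and -0.21. CD151 was no longer called. Of the 26 members called with the offset, 22 were also called without it. LAMC1 was among those called only with it (edgeR adjusted p = 0.0469). By level, 26 of the 34 stood in the most abundant quintile, where 29.9% of all genes were lower and 17.3% higher. Of the 26 members there, 18 fell and 1 rose, with a median of -0.48. Among 704 genes in both the longest-exon quintile and the 2 quintiles richest in G and C, 35.2% were lower and 8.95% higher (median -0.15). Of the 9 members there, 6 fell and 1 rose, with a median of -0.89.

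**Figure D5:**
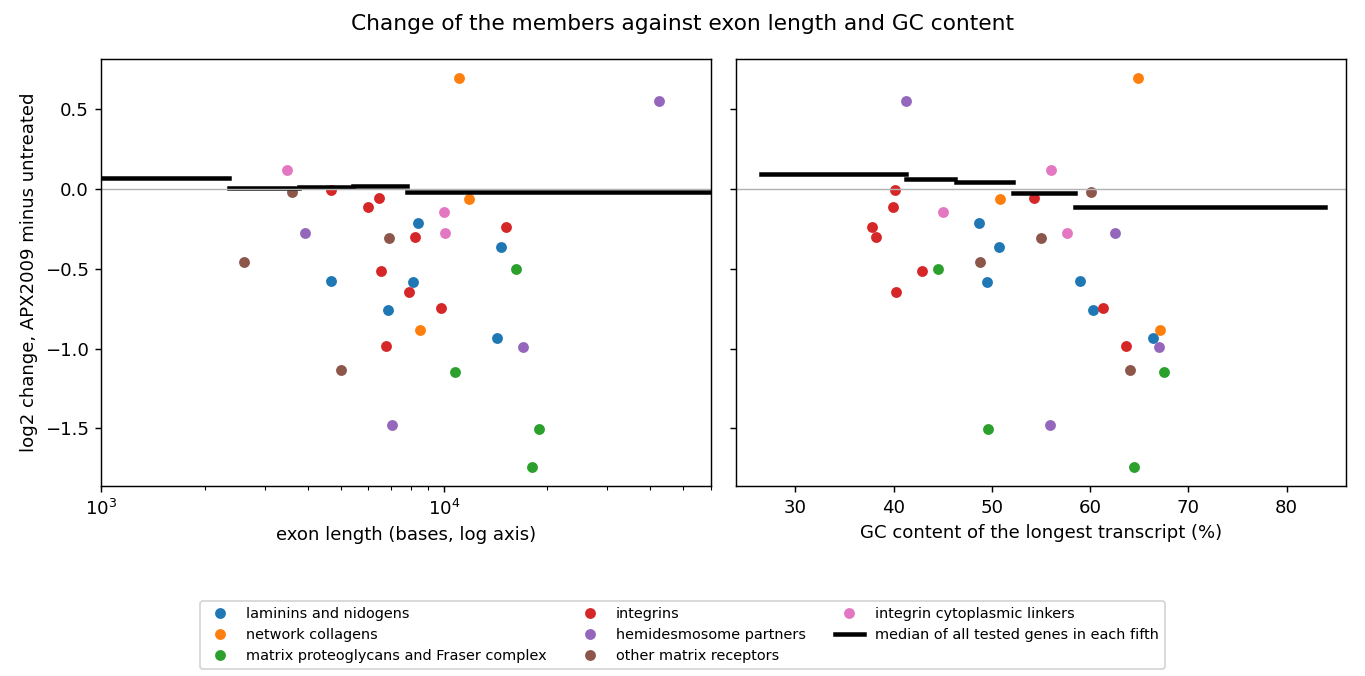
Log2 change of 33 tested members (y axis, coloured by role; COL4A1 left out) against exon length (left, log axis) and GC content of the longest transcript (right); black bars are medians of all tested genes in each quintile. The bars stay between -0.02 and 0.07 over length and run from 0.10 to -0.11 over GC content, and most members lie below them.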

How the data were processed

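RNA of 3 untreated and 3 APX2009-treated cultures was sequenced after oligo(dT) enrichment, per the labels' protocols. The authors deposited unnormalized counts, whole numbers, for 58051 Ensembl genes and 92 ERCC transcripts. The submitters' processing notes name GRCh38, STAR 2.5.2b, Trimmomatic 0.36, Subread 1.5.2 and featureCounts; neither the annotation release nor a strand setting is given in these sources. Without strand, overlapping genes cannot be told apart. GENCODE 29 (GRCh38) matched 57447 IDs; the rest held 0.0348% of counts. Libraries held 21158750 to 26111656 gene counts.

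Library sizes leave out ERCC. Counts were filtered with filterByExpr, scaled by TMM and tested with edgeR 4.0.16 (R 4.3.3, limma 3.58.1, DESeq2 1.42.0 for an alternative); SE came from the F statistic. The biological coefficient of variation was 10.3%. The fit was tested on simulated data. Exon length is the union of GENCODE exons and GC that of the longest transcript. No 2 libraries of a group agreed within sampling noise (chi-square per degree of freedom 3.06 to 30.0). The members, lists and pairs were chosen with earlier results of these data known. All members are named; library values are given for up to 4 per role with the smallest p (5 for integrins) and each further list names its 4 smallest p, except 1 gene that is not reported here. Library values of LAMA3, LAMC1, ITGB1, the nidogens, COL4A2 and COL4A6 were given beyond that rule. ITGA1, ITGA5, ITGA7 and ITGAE were also named beyond it. Figures used matplotlib 3.10.9.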

Additional observations from a re-analysis of the deposited data

How the results depend on the processing

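Of the 23 members called, 18 passed with every library left out in turn and LAMA3, FREM2, ITGAV, CD151 and DST did not; none of the 23 turned direction under any alternative. With one library left out, 17 to 22 members were lower and 1 to 2 higher, and over all genes 1795 to 2870 were lower and 1708 to 2839 higher, against 2576 and 2543 with all libraries. With ERCC scaling 1 member was lower and 1 higher, and 7 genes were lower and 119 higher; the cause was not tested. Against a 1.5-fold change 8 members were lower and 1 higher (255 and 351 genes), and at an adjusted p under 0.01, 16 were lower and 1 higher (1587 and 1470 genes). Higher members numbered 6 with no filter, where 2781 of all 30502 genes tested were higher. They numbered 1 with a filter of 1 CPM in 3 libraries, which leaves COL4A1 out, where 2560 of 13256 genes were higher. DESeq2 called 0 members higher (3 at an unadjusted p under 0.05, and COL4A1 had no adjusted p), against 2 by edgeR and 2 by limma voom. Over all genes 2352, 2543 and 2492 were higher by these tools. RLE, upper-quartile and total-count scaling and leaving out mitochondrial and the 20 most counted genes gave 20 or 21 lower and 2 higher members. Over all genes they gave 2509 to 2663 lower and 2511 to 2668 higher.

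Deviations of same-numbered libraries correlated at 0.140, 0.0782 and 0.006, and those of differently numbered ones at -0.144 to 0.115. This does not settle whether replicate numbers pair the libraries, and the main fit took them as unpaired. With the replicate number as a block 24 members were lower and 3 higher (2744 and 2757 of all genes). Without it 21 members were lower and 2 higher (2576 and 2543). With the block and the offset for length and GC 26 were lower and 3 higher (3460 and 2782). LAMC1, COL7A1, ITGB8 and TLN1 passed with the block and not without it (edgeR adjusted p 0.0375, 0.0347, 0.0234 and 0.0127).

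Members that did not pass could turn sign. ITGB6 was at 0.0122 with total counts, 0.107 with ERCC scaling, 0.0033 with the 1 CPM filter and 0.0026 without the most counted genes, COL4A5 at 0.0549 and SDC1 at 0.0030 with ERCC scaling, and SDC1 at 0.0641 with the offset and 0.0635 with block and offset. With one library left out COL4A5 ran from -0.159 to 0.0562, ITGB5 from -0.129 to 0.0335, ITGB6 from -0.0715 to 0.0837 and SDC1 from -0.0692 to 0.0602. Counts limit COL4A1 and the 4 untested members.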
